A study of Homo sapiens with 12 samples.

Results

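A group of 8 genes around the MYC network was followed: BHLHE40, BHLHE41, MXI1, MXD1, MXD4, MAX, MYC and CITED2. They were taken by name, and each was looked up by gene number in the array annotation among the probe sets that give exactly 1 gene. Of the 8, 7 had such a probe set, 19 probe sets in all out of 41091, and they are 7 of the 19775 genes measured. MXD4 has no value here, because its 3 probe sets also carry the gene of the microRNA MIR4800. The arrays came from L3.6pl and FG, human pancreatic cancer cell lines that the series title sets apart by metastatic potential. L3.6pl cells are known to have been obtained by repeated selection for metastasis in mice. The 4 groups were L3.6pl in hypoxia, L3.6pl in normoxia, FG in hypoxia and FG in normoxia, with 3 arrays each. Hypoxic cultures spent their last 24 h at 1% oxygen, with nitrogen replacing air, and normoxic cultures were left untreated. All cultures started from frozen stock and grew in DMEM with serum, antibiotics and added vitamins and amino acids. Nothing in the labels says that the 3 arrays of a group came from separate cultures, so the p-values measure only the spread between these arrays, which may be technical.

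MYC is a transcription factor that pairs with MAX and activates genes of growth and ribosome synthesis through E-boxes. The MXD proteins, of which MXI1, MXD1 and MXD4 are members, pair with MAX at the same sites and recruit SIN3 corepressors, so they act against MYC. BHLHE40 and BHLHE41 are E-box repressors that feed back on the circadian clock, and CITED2 competes with the hypoxia-inducible factors for their coactivators CREBBP and EP300. BHLHE40, BHLHE41, MXI1 and CITED2 are textbook targets of the hypoxia-inducible factors, which bind a short core in promoters.

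Promoter windows are shown for 5 of the genes, because the same letters serve the factors on both sides: the hypoxia core is ACGTG or GCGTG, and the E-box that MYC, MXD and BHLHE proteins read is CACGTG, which holds the first of these. The sequences are from RefSeq on GRCh38.p14, 250 bases before to 50 after an annotated start, given 5′ to 3′ on the gene's strand. Capitals mark each match to the core or the E-box on either strand. The BHLHE40 window is chr3:4979187-4979486 (plus strand), the BHLHE41 window chr12:26124988-26125287 (minus strand), the MXI1 window chr10:110209981-110210280 (plus strand, start 2 of 3 annotated), the MXD1 window chr2:69914859-69915158 (plus strand) and the CITED2 window chr6:139374599-139374898 (minus strand, start 1 of 3 annotated).
BHLHE40: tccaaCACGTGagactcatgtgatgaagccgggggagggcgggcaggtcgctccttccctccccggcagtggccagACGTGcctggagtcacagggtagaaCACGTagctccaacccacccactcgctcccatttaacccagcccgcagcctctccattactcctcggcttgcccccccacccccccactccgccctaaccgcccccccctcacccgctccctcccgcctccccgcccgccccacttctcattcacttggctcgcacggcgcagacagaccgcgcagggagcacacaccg
BHLHE41: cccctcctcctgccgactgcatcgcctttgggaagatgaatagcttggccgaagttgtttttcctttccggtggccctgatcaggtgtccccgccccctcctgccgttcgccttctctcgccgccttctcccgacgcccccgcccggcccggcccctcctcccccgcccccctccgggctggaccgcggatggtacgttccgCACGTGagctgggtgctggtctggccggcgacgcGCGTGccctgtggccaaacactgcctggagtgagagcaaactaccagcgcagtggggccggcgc
MXI1: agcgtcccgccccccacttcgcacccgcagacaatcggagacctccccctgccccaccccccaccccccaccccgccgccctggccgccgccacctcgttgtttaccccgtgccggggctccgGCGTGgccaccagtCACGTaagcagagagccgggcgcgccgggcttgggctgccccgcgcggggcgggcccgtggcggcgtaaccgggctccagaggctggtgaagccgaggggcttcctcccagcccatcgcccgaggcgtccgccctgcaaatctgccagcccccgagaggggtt
MXD1: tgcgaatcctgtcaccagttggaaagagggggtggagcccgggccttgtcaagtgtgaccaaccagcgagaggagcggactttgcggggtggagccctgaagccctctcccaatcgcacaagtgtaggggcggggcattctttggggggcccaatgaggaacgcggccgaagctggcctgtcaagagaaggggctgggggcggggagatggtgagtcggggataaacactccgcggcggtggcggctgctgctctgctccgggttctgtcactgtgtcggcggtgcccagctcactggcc
CITED2: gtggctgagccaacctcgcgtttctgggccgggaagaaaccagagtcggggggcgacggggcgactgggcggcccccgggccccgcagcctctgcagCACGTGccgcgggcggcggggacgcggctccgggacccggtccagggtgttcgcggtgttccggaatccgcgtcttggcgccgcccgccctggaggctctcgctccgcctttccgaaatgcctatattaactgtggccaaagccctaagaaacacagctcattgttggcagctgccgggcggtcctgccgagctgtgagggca

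The BHLHE40 window holds 4 matches to a core, all ACGTG, of which the pair beginning at bases -245 and -244 are the 2 strands of 1 E-box. BHLHE41 has 3, a pair in an E-box just upstream of the start at -48 and -47 and a GCGTG at -14. The MXI1 window has GCGTG at -127 and ACGTG at -113 with no E-box, its start 3 has 2 GCGTG matches, and its start 1 has none. CITED2 has 1 E-box at -153 in the first window. Its starts 2 and 3, whose windows overlap, have GCGTG at -145 and 27 and at -123. The MXD1 window has no match. Among all 35116 promoter windows of that table, 48.4% hold ACGTG or GCGTG, 21.4% hold ACGTG and 7.26% hold CACGTG, so a match is common. A match describes these letters and is not a binding site.

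**Figure D1:**
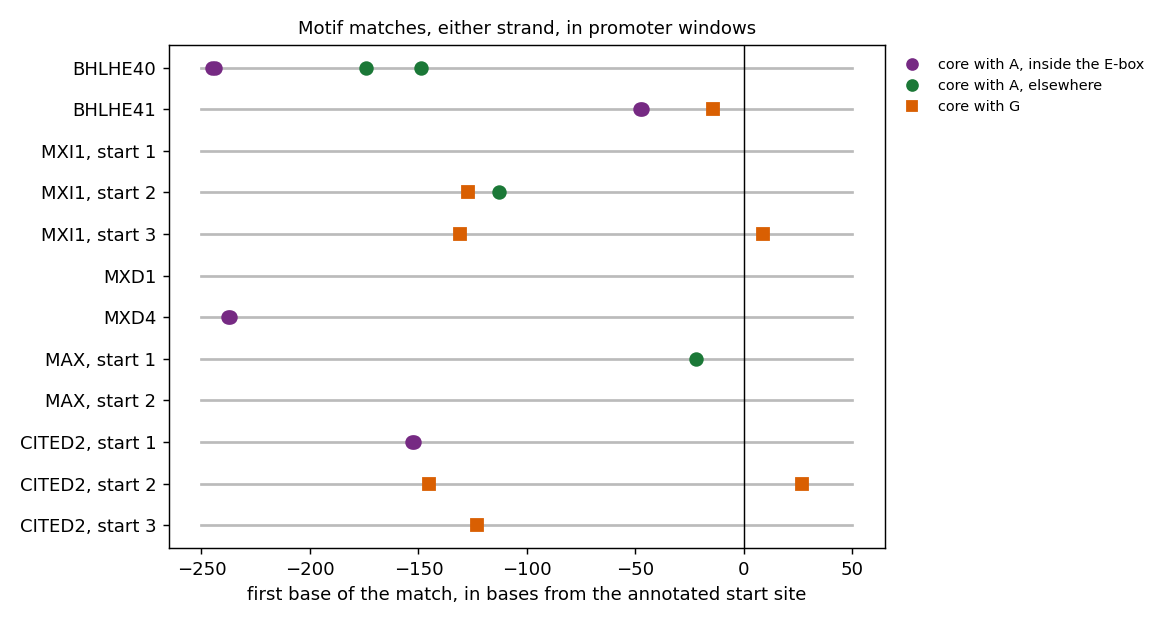
Positions of motif matches in the 12 promoter windows of 7 genes (MXD4 is included, and MYC had no window). The first base of each match is on the x axis, in bases from the annotated start (vertical line). Circles are ACGTG (purple inside the E-box CACGTG) and squares GCGTG. BHLHE40 holds 4 matches, while MXD1, the first MXI1 start and the second MAX start hold none.

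Values below are log2 of the deposited intensities, and a gene is called changed at an adjusted p below 0.05 over all 19775 genes in the limma fit. Errors of changes are standard errors. Within groups the arrays correlated at a Pearson's r of 0.974 to 0.996 across genes, and genes are not independent of one another. Textbook hypoxia targets rose in both lines, 8 of 9 measured in L3.6pl and 8 of 9 in FG. The 8 ductal epithelial markers, with 2 higher in hypoxic L3.6pl cells and 1 in hypoxic FG cells, averaged 10.64 to 11.30 over the 12 arrays. The 9 measured markers of blood, endothelial and stromal cells averaged 5.13 to 5.68, with 0 called by limma between hypoxia and normoxia in either line (2 at an unadjusted p under 0.05 in L3.6pl and 1 in FG), although the collagen COL3A1 reached 9.99 to 11.85 in FG against 5.46 to 5.95 in L3.6pl. The endothelial marker PECAM1 also lay above that average, at 7.19 to 8.52 in L3.6pl and 6.66 to 7.37 in FG. On such bulk RNA, fewer cells of a kind and less RNA per cell cannot be told apart. FG normoxia replicate 1 stood apart: its mean over 14 proliferation genes was 8.12, against 10.09 and 10.12 in the other two normoxic FG arrays. L3.6pl normoxia replicate 1, at 9.43 against 10.35 and 10.23, and L3.6pl hypoxia replicate 3, which had the lowest array quality weight (0.253), also stood apart. Fits without these arrays have 1 array fewer in each of their groups.

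MXI1, the MXD repressor that is a known hypoxia target, had the largest change of the 7 in each line when every gene is read on its brightest probe set. It rose 4.47-fold in hypoxic L3.6pl cells and 4.19-fold in hypoxic FG cells. Its level was 12.31, 12.60 and 11.85 in hypoxic L3.6pl cells, against 10.56, 9.89 and 9.82 in normoxic L3.6pl cells. In FG it was 11.89, 12.12 and 11.98 in hypoxia, against 10.38, 9.88 and 9.53 in normoxia. All 6 hypoxic arrays lay above all 6 normoxic ones, and in each line normoxia replicate 1 was the highest normoxic array. The log2 change was 2.16 ± 0.259 in L3.6pl (adjusted p = 0.00122) and 2.07 ± 0.259 in FG (adjusted p = 0.000913). By size these ranked 70 of 19775 genes in L3.6pl and 113 in FG. With any 1 array left out, the change stayed between 1.99 and 2.40 in L3.6pl and between 1.87 and 2.29 in FG, and it was called each time. MXI1 has 1 probe set, 202364_at, so no second one can be set beside it.

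**Figure D2:**
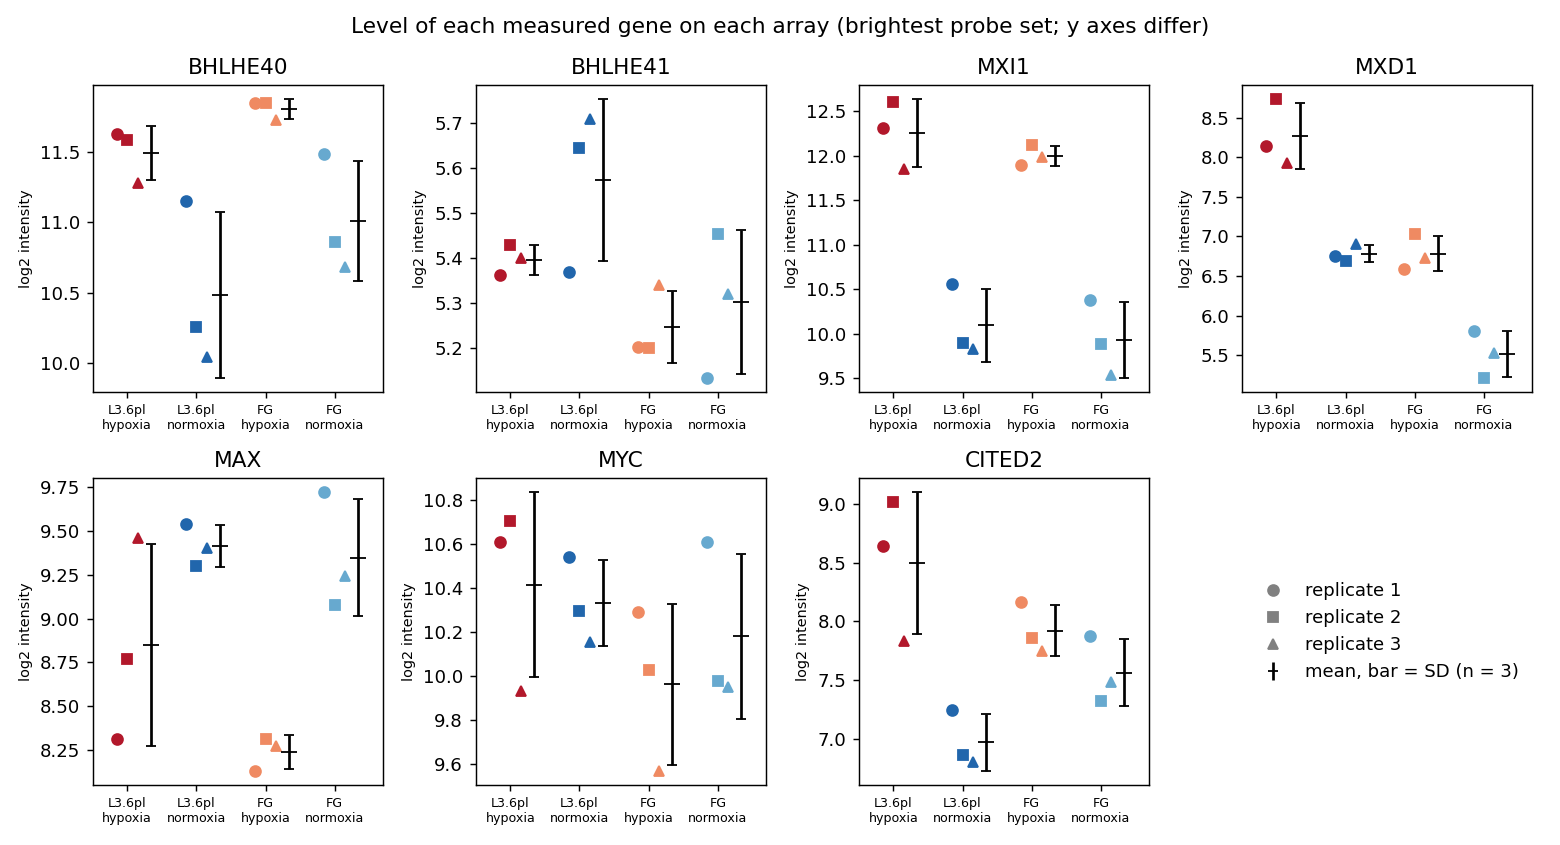
Level (log2 intensity, y axis, scaled separately for each gene) of the 7 measured genes on each of the 12 arrays, by group on the x axis, with the mean and SD of 3 arrays in black. MXI1, MXD1 and BHLHE40 separate hypoxia from normoxia within each line, and MYC overlaps between all neighbouring groups. Replicate 1 (circles) is the highest normoxic array of MXI1, BHLHE40, CITED2, MAX and MYC in both lines.

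MXD1, a second MXD repressor, also rose in both lines on its brightest probe set, 228846_at. There it was higher in L3.6pl at either oxygen level. It read 8.14, 8.74 and 7.93 in hypoxic L3.6pl cells, against 6.75, 6.69 and 6.91 in normoxic L3.6pl cells. The FG values were 6.59, 7.03 and 6.73 in hypoxia, against 5.80, 5.22 and 5.53 in normoxia. Hypoxic FG cells and normoxic L3.6pl cells had the same mean (6.78). The rise was 1.49 ± 0.211 in L3.6pl (2.80-fold, adjusted p = 0.00265) and 1.27 ± 0.211 in FG (2.41-fold, adjusted p = 0.004), and both calls held with any 1 array left out.

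The other MXD1 probe sets did not all follow. Probe set 206877_at rose by 1.25 ± 0.314 in L3.6pl (adjusted p = 0.0439 over all probe sets) and was at 0.87 ± 0.314 in FG (adjusted p = 0.108). Probe set 226275_at was at 0.19 ± 0.330 in L3.6pl and at -0.81 ± 0.330 in FG (adjusted p = 0.154), where its values were 4.43, 5.06 and 5.17 in hypoxia, against 6.40, 5.19 and 5.52 in normoxia. With the mean of the 3 probe sets the FG change was 0.44 and was not called (adjusted p = 0.199), so the FG call rests on the choice of probe set. Probe set 206877_at was called in FG at 0.82 once the 3 arrays that stand apart were left out (adjusted p = 0.00411).

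BHLHE40, the clock repressor also known as DEC1, was higher on every hypoxic array than on any normoxic array of its line, and the size of the difference depended on the probe set. Its brighter probe set, 201170_s_at, read 11.63, 11.58 and 11.28 in hypoxic L3.6pl cells, against 11.15, 10.26 and 10.04 in normoxic L3.6pl cells. In FG it read 11.85, 11.85 and 11.73 in hypoxia, against 11.49, 10.86 and 10.68 in normoxia. The difference was 1.01 ± 0.275 in L3.6pl (adjusted p = 0.0522) and 0.80 ± 0.275 in FG (adjusted p = 0.0949), and neither was called. Leaving out the 3 arrays that stand apart gave 1.46 in L3.6pl (adjusted p = 0.000163) and 1.04 in FG (adjusted p = 0.000417), called in both. Those arrays are the highest normoxic BHLHE40 array of each line and the lowest hypoxic L3.6pl array. Leaving them out thus widens the difference by itself. Single arrays were enough to bring the call. It was called in both lines without FG normoxia replicate 1 (adjusted p = 0.0268 in L3.6pl and 0.0358 in FG) or without L3.6pl normoxia replicate 1 (0.00887 in L3.6pl and 0.0289 in FG), and in L3.6pl without L3.6pl hypoxia replicate 3 (adjusted p = 0.0428).

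The second BHLHE40 probe set, 201169_s_at, rose 9.37-fold in FG. Its level was 11.88, 11.82 and 11.12 in hypoxic FG cells, against 8.23, 8.55 and 8.34 in normoxic FG cells. In L3.6pl it was 10.56, 10.29 and 8.45 in hypoxia, against 8.16, 7.62 and 7.50 in normoxia. Hypoxia replicate 3 of L3.6pl lay far below the other hypoxic arrays yet above every normoxic array of its own line. The change was 3.23 ± 0.461 in FG (adjusted p = 0.00207) and 2.01 ± 0.461 in L3.6pl (adjusted p = 0.0298), where it was 2.66 without hypoxia replicate 3 and 2.86 without the 3 arrays that stand apart. On this probe set hypoxic L3.6pl cells were lower than hypoxic FG cells by 1.84 on the log2 scale (-1.84 ± 0.461, adjusted p = 0.023), and by 1.18 without L3.6pl hypoxia replicate 3 (-1.18 ± 0.255, adjusted p = 0.0129).

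BHLHE41, the DEC2 paralogue, averaged 5.38, 5.16, 4.12 and 3.59 over the 12 arrays on its 4 probe sets. None was called higher in hypoxia. The brightest, 231243_s_at, read 5.36, 5.43 and 5.40 in hypoxic L3.6pl cells, against 5.37, 5.64 and 5.71 in normoxic L3.6pl cells. Hypoxic FG cells had 5.20, 5.20 and 5.34, against 5.13, 5.45 and 5.32 in normoxic FG cells. The groups overlapped in both lines, with differences of -0.18 ± 0.113 in L3.6pl (95% interval -0.43 to 0.07) and -0.05 ± 0.113 in FG (-0.30 to 0.19). Only 231242_at, at 3.81 to 4.39 over all arrays, was called, lower by 0.39 in hypoxic FG cells (-0.39 ± 0.10, adjusted p = 0.0295). Probe set 221530_s_at separated the lines instead of the oxygen levels. It read 5.77 to 6.60 on the 6 L3.6pl arrays, against 3.88 to 4.42 on the 6 FG arrays, 4.03-fold higher in normoxic L3.6pl cells (2.01 ± 0.247, adjusted p = 0.000655) and 3.67-fold higher in hypoxic L3.6pl cells (adjusted p = 0.000658).

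CITED2, which restrains hypoxia-inducible factors by taking up their coactivators, rose in L3.6pl and was not called in FG. Its brightest probe set, 209357_at, had 8.65, 9.02 and 7.83 in hypoxic L3.6pl cells, against 7.25, 6.86 and 6.80 in normoxic L3.6pl cells. In FG it had 8.16, 7.86 and 7.75 in hypoxia, against 7.88, 7.32 and 7.48 in normoxia. The L3.6pl groups did not overlap and the FG groups did, with FG normoxia replicate 1 above 2 of the hypoxic arrays. The rise in L3.6pl was 1.53 ± 0.271 (2.89-fold, adjusted p = 0.00806), and FG was at 0.36 ± 0.271 (adjusted p = 0.5).

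The second CITED2 probe set, 207980_s_at, was higher in hypoxia in both lines without overlap. It had 8.61, 8.90 and 6.90 in hypoxic L3.6pl cells, against 6.43, 6.01 and 6.15 in normoxic L3.6pl cells, and rose by 1.94 ± 0.424 (adjusted p = 0.0241). Replicate 3 was again the lowest hypoxic array, and the rise was 2.56 without it (adjusted p = 0.000213) and 2.67 without the 3 arrays that stand apart (adjusted p = 0.000265). In FG the values were 8.25, 7.79 and 7.41 in hypoxia, against 6.68, 6.77 and 6.67 in normoxia, a difference of 1.11 ± 0.424 that was not called (adjusted p = 0.128). The FG difference on this probe set was called without L3.6pl hypoxia replicate 3 (adjusted p = 0.00397), an array of the other line that enters the shared estimate of the spread. CITED2 was called in FG on both probe sets once the 3 arrays that stand apart were left out, at 0.52 (adjusted p = 0.0444) and at 1.10 (adjusted p = 0.00745), with p adjusted over all probe sets. The third, 227287_at, averaged 5.41 over the 12 arrays and was not called in either line.

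MAX, the shared partner of MYC and the MXD proteins, was lower in hypoxic FG cells. Its brightest probe set, 209332_s_at, was at 8.13, 8.31 and 8.27 in hypoxic FG cells, against 9.72, 9.08 and 9.24 in normoxic FG cells. In L3.6pl it was at 8.31, 8.77 and 9.46 in hypoxia, against 9.54, 9.30 and 9.40 in normoxia. Hypoxia replicate 3 of L3.6pl lay among the normoxic arrays, and the other two hypoxic arrays lay below all of them. MAX fell by 1.11 in FG (-1.11 ± 0.251, adjusted p = 0.0177), a call that ended without FG hypoxia replicate 1 (-1.05, adjusted p = 0.0625) or FG hypoxia replicate 2 (-1.15, adjusted p = 0.0571). The L3.6pl difference was -0.57 ± 0.251 (adjusted p = 0.222), and it was called at -0.87 without L3.6pl hypoxia replicate 3 (adjusted p = 0.0166) and was -0.30 without L3.6pl hypoxia replicate 1.

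The 5 MAX probe sets spread widely. In FG a second one, 209331_s_at, also fell (-0.70 ± 0.188, adjusted p = 0.0379), 210734_x_at was at -0.36 ± 0.152 (called at -0.53 without the 3 arrays that stand apart, adjusted p = 0.0124), 208403_x_at was at -0.00084 ± 0.154, and the dimmest, 214108_at, was at 0.77 ± 0.257 (adjusted p = 0.0823, and 0.0499 without L3.6pl hypoxia replicate 3). That last one read 6.41, 6.02 and 6.12 in hypoxic FG cells, against 5.03, 5.34 and 5.86 in normoxic FG cells. The mean of all 5 was -0.28 in FG and was not called (adjusted p = 0.101).

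MYC, the activator of the network, was not called in any of the 5 comparisons with all arrays at equal weight. It was called between lines in hypoxia, higher in L3.6pl, with array quality weights (0.57, adjusted p = 0.0404) and without the 3 arrays that stand apart (0.69, adjusted p = 0.0238). Its only probe set, 202431_s_at, had 10.61, 10.71 and 9.93 in hypoxic L3.6pl cells, against 10.54, 10.30 and 10.16 in normoxic L3.6pl cells. In FG it had 10.29, 10.03 and 9.57 in hypoxia, against 10.61, 9.98 and 9.95 in normoxia. Both lines overlapped between oxygen levels, and the highest normoxic array was again replicate 1. The difference was 0.08 ± 0.255 in L3.6pl (adjusted p = 0.908) and -0.22 ± 0.255 in FG (adjusted p = 0.707). The 95% intervals, 0.717-fold to 1.57-fold in L3.6pl and 0.582-fold to 1.27-fold in FG, leave room for a change in either direction.

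**Figure D3:**
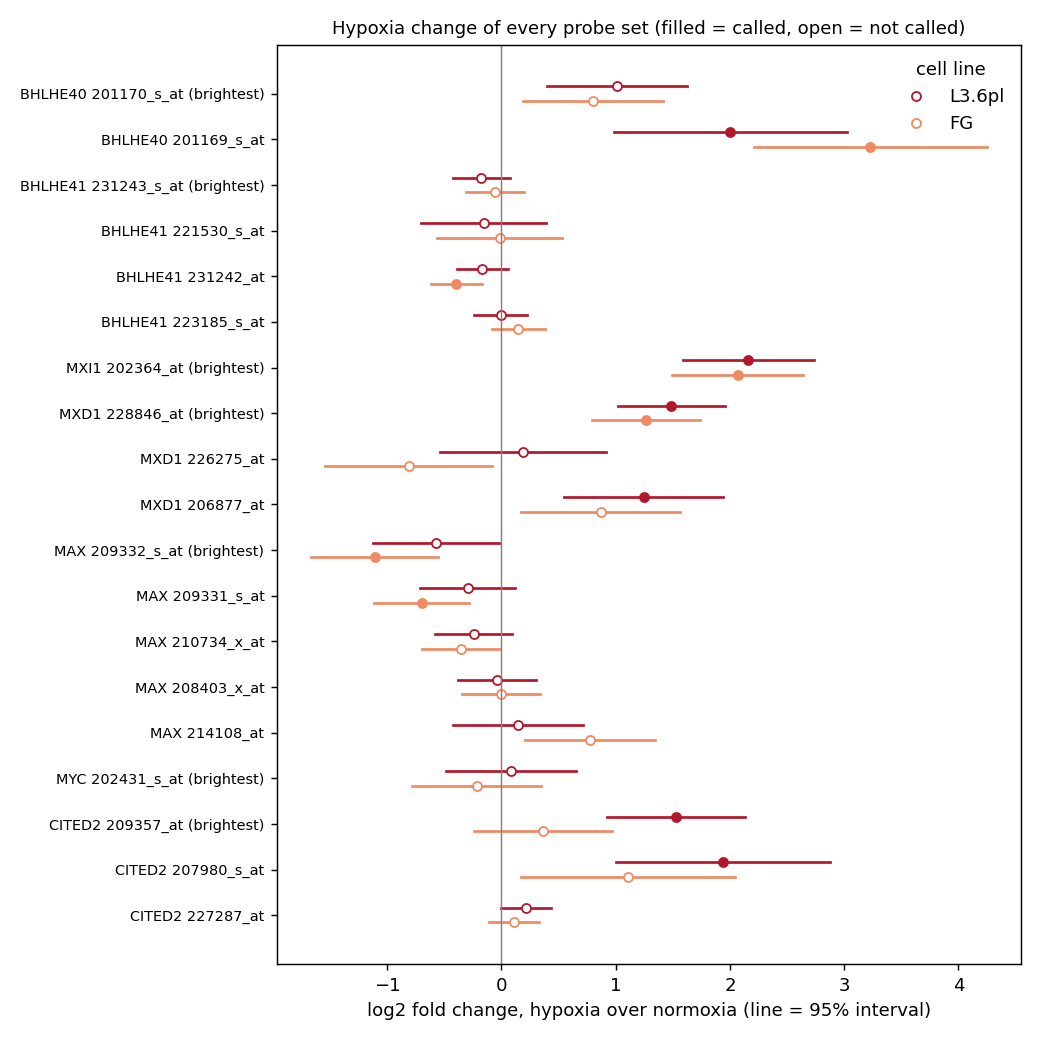
Log2 fold change of hypoxia over normoxia (x axis) with its 95% interval for each of the 19 probe sets, L3.6pl in dark red and FG in orange, filled where called over all probe sets. MXI1 and the brightest MXD1 probe set are called in both lines at 1.27 to 2.16, both BHLHE40 probe sets lie right of 0, and the MAX probe sets run on both sides of 0 in FG.

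Of the 7 measured members, 3 were called in hypoxic L3.6pl cells, all higher (MXI1, MXD1 and CITED2), where 6.86% of all genes were called, 3.89% higher and 2.97% lower. In hypoxic FG cells 3 were called, with MXI1 and MXD1 higher and MAX lower, where 10.7% of all genes were called, 4.24% higher and 6.47% lower. Hypoxic and normoxic arrays did not overlap for 4 of the 7 in L3.6pl (24.4% of all genes) and for 4 of the 7 in FG (27.9% of all genes). The median log2 change of the 7 was 1.01 in L3.6pl and 0.36 in FG, beside -0.02 and -0.03 for all genes. With the 3 arrays that stand apart left out, 5 members were called in each line, the same 5 (BHLHE40, MXI1, MXD1, MAX and CITED2), where 21.1% of all genes were called in L3.6pl and 19.6% in FG. The plot of fits with arrays left out shows these values.

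**Figure D4:**
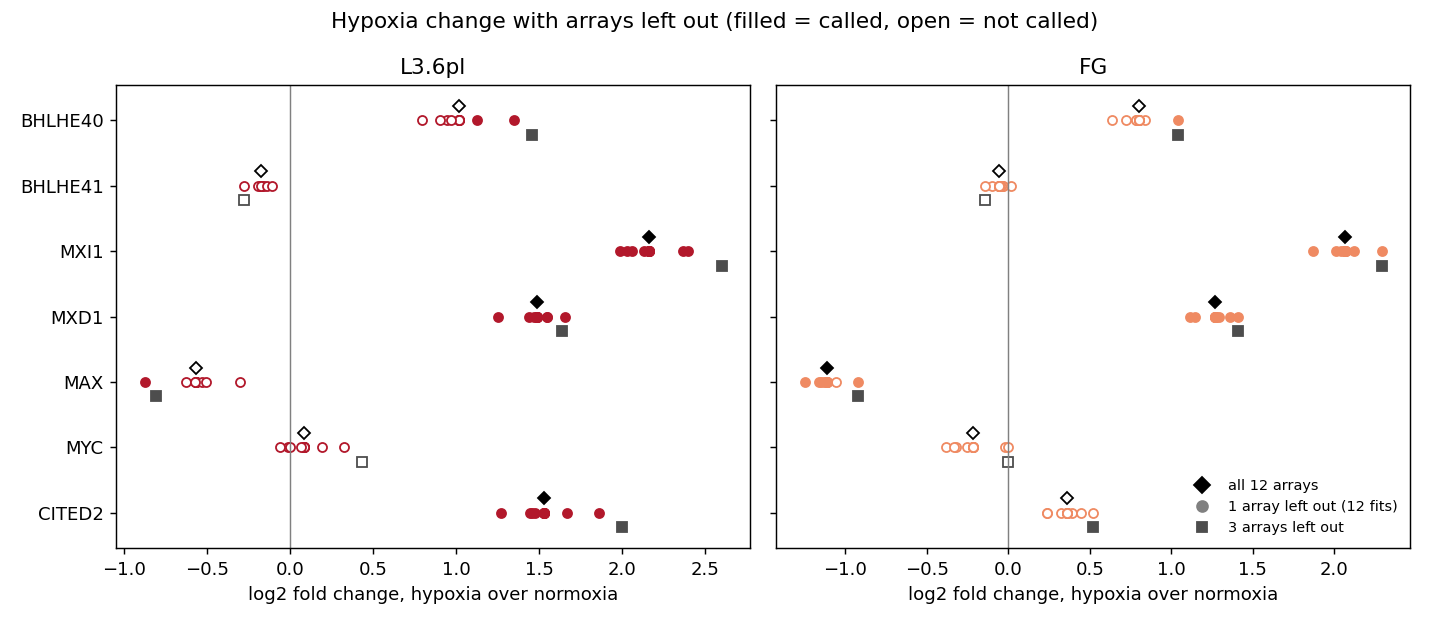
Log2 fold change of hypoxia over normoxia (x axis) for each gene with all 12 arrays (diamonds), with 1 array left out in turn (circles) and without the 3 arrays that stand apart (squares), L3.6pl left and FG right, filled where called. MXI1 and MXD1 are filled throughout, BHLHE40 is open with all arrays and filled without the 3, and MYC and BHLHE41 are open throughout.

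The lines were then set against each other at the same oxygen level. These comparisons share their arrays with the hypoxia comparisons. On the brightest probe sets MXD1 was the only member called. It was 2.41-fold higher in normoxic L3.6pl cells (1.27 ± 0.211, adjusted p = 0.00306), where 10.7% of all genes were called, 5.16% higher and 5.54% lower. In hypoxia it was 2.80-fold higher in L3.6pl (1.49 ± 0.211, adjusted p = 0.000768), where 16.7% of all genes were called, 10% higher and 6.72% lower. The lines did not overlap for 2 of the 7 in normoxia (28.1% of all genes) and for 4 of the 7 in hypoxia (32.1% of all genes). The MXD1 probe set 226275_at was also higher in hypoxic L3.6pl cells (1.86 ± 0.330, adjusted p = 0.0038). Probe set 206877_at was at 0.75 ± 0.314 there (adjusted p = 0.154), and was called at 1.21 without the 3 arrays that stand apart. In normoxia neither was called, with 226275_at at 0.86 ± 0.330 (adjusted p = 0.163) and 206877_at at 0.38 ± 0.314 (adjusted p = 0.617). The BHLHE41 probe set 221530_s_at was called higher in L3.6pl, at 2.01 in normoxia and 1.87 in hypoxia. Probe set 223185_s_at of BHLHE41 was called higher in normoxic L3.6pl cells (0.47 ± 0.104, adjusted p = 0.0196). The BHLHE40 probe set 201169_s_at was called lower in hypoxic L3.6pl cells (-1.84 ± 0.461, adjusted p = 0.023). CITED2 was at -0.59 ± 0.271 in normoxia (adjusted p = 0.231) and at 0.58 ± 0.271 in hypoxia (adjusted p = 0.196). Without the 3 arrays that stand apart, the L3.6pl value in hypoxia was called higher for CITED2 at 0.91, MYC at 0.69 and MXI1 at 0.46, and BHLHE40 was called lower in normoxic L3.6pl cells at -0.62. Leaving out L3.6pl hypoxia replicate 3 alone called CITED2 in hypoxia (0.91, adjusted p = 0.0149), leaving out L3.6pl hypoxia replicate 1 called MAX in hypoxia (0.87, adjusted p = 0.0286), and leaving out L3.6pl normoxia replicate 1 called BHLHE40 in normoxia (-0.86, adjusted p = 0.0386).

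The difference of the hypoxia effects, L3.6pl minus FG, asks whether the lines responded unequally. No member was called (limma, 0 of 7, where 0.0253% of all genes were called). On the brightest probe sets, CITED2 had the largest difference, 1.17 ± 0.383, with an unadjusted p of 0.0114 and an adjusted p of 0.464. It was the only member there under an unadjusted 0.05. MXI1 had the smallest, 0.09 ± 0.366, with a 95% interval from -0.71 to 0.90. For MAX it was 0.54 ± 0.355 and for MYC 0.30 ± 0.361. The BHLHE40 probe sets differed in sign, at 0.21 on the brightest and -1.22 ± 0.651 on 201169_s_at (adjusted p = 0.793 over all probe sets). The MXD1 probe set 226275_at was at 1.00 ± 0.467 (adjusted p = 0.74).

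Each group had its own order for each gene. MXI1 ran from hypoxic L3.6pl through hypoxic FG and normoxic L3.6pl to normoxic FG, and only the step from hypoxic FG to normoxic L3.6pl was free of overlap. MXD1 ran from hypoxic L3.6pl through normoxic L3.6pl and hypoxic FG, which overlapped, to normoxic FG. BHLHE40 was highest in hypoxic FG, which did not overlap hypoxic L3.6pl, and the lower steps overlapped. MAX was lowest in hypoxic FG, the only step free of overlap and by a narrow gap (8.313 against 8.311), and CITED2 was lowest in normoxic L3.6pl, again its only step free of overlap. MYC and BHLHE41 had no step without overlap.

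By the root mean square difference of centred log2 values over the 12 arrays, the gene whose pattern lay nearest to MXI1 was VLDLR, a lipoprotein receptor, at 0.157, against a median of 1.13 over all genes. BACH1, a transcription factor, followed at 0.243 and TNFRSF10D, a TRAIL decoy receptor, at 0.251. VLDLR rose by 2.06 ± 0.326 in hypoxic L3.6pl cells and by 1.84 ± 0.326 in hypoxic FG cells. Nearest to MXD1 were SERTAD2 (0.227), PELI1 (0.237) and PLEK2 (0.254), and nearest to BHLHE40 were FBLIM1 (0.170), IDS (0.195) and PTPRF (0.220). CITED2 had KLF7 (0.225), LPIN2 (0.269) and CDCP1 (0.270), and MAX had SLC36A1 (0.138), ZFYVE16 (0.143) and RPS6KA6 (0.144). KLF7 rose by 1.52 ± 0.227 in hypoxic L3.6pl cells and was at 0.63 ± 0.227 in FG (adjusted p = 0.111). This likeness is a description over arrays that share their groups, and it carries no test.

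The counts in the gene lists that follow stand beside 6.86% of all genes called in L3.6pl and 10.7% in FG, or 21.1% and 19.6% without the 3 arrays that stand apart. Of the 8 other genes of the MAX and MLX network, 0 were called in hypoxic L3.6pl cells by limma and 0 had an unadjusted p under 0.05 (1 higher and 1 lower were called without the 3 arrays that stand apart). In FG 2 of the 8 fell in hypoxia (3 without those arrays), and the median change of the list was -0.08 in L3.6pl and -0.21 in FG. MYCN, a MYC paralogue, was at 6.43, 7.37 and 7.72 in hypoxic FG cells, against 8.95, 9.02 and 8.82 in normoxic FG cells. It fell by 1.76 there (-1.76 ± 0.286, adjusted p = 0.00361), with 7 of its 10 probe sets negative, and stayed between 5.35 and 5.96 on all L3.6pl arrays. In normoxia MYCN was lower in L3.6pl by 3.18 (-3.18 ± 0.286, adjusted p = 5.62e-05). MGA, which pairs with MAX and represses, fell by 1.36 in FG (-1.36 ± 0.173, adjusted p = 0.00101), with 3 of 4 probe sets negative. MLX, at 0.08 in L3.6pl and 0.03 in FG, and MNT, at 0.06 and -0.13, were not called.

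Among 17 measured cofactors and regulators of MYC turnover, 2 rose and 1 fell in hypoxic L3.6pl cells, and 1 rose and 2 fell in hypoxic FG cells. ZBTB17, the MIZ1 protein through which MYC represses, rose by 0.86 ± 0.094 in L3.6pl (adjusted p = 0.000816) and by 0.46 ± 0.094 in FG (adjusted p = 0.0103). SKP2, a ubiquitin ligase subunit that acts on MYC, fell by 1.15 in L3.6pl (-1.15 ± 0.255, adjusted p = 0.0223) and by 1.13 in FG (-1.13 ± 0.255, adjusted p = 0.0173). HDAC1, a deacetylase of the SIN3 complex, fell in FG (-0.71 ± 0.167, adjusted p = 0.0215), and the acetyltransferase KAT5 rose in L3.6pl (0.36 ± 0.083, adjusted p = 0.027). HUWE1 and RUVBL2 were not called in either line. With the 3 arrays that stand apart left out, 4 rose and 4 fell in L3.6pl, and 2 rose and 6 fell in FG, beside 21.1% of all genes called in L3.6pl and 19.6% in FG.

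Of 26 measured textbook genes activated by MYC, 3 were called lower and 0 higher in L3.6pl, and 2 lower and 1 higher in FG. The median change was -0.30 in L3.6pl and -0.27 in FG. POLR1B, a subunit of RNA polymerase I, fell by 0.98 in L3.6pl (-0.98 ± 0.210, adjusted p = 0.019) and by 1.30 in FG (-1.30 ± 0.210, adjusted p = 0.00349). The cyclin-dependent kinase CDK4 fell by 0.95 in L3.6pl (adjusted p = 0.0178) and by 1.08 in FG (adjusted p = 0.00719). CAD, an enzyme of pyrimidine synthesis, fell in L3.6pl (-1.30 ± 0.324, adjusted p = 0.0386) and was at -1.06 ± 0.324 in FG (adjusted p = 0.064), with its 2 probe sets on opposite sides of 0 there. LDHA, which hypoxia-inducible factors also activate, rose in FG (0.83 ± 0.199, adjusted p = 0.0236). Its FG values were 13.64, 13.70 and 13.64 in hypoxia, against 12.22, 13.16 and 13.12 in normoxia, where replicate 1 stands apart. In L3.6pl LDHA was not called, at 13.66, 13.70 and 13.65 in hypoxia, against 13.03, 13.06 and 13.04 in normoxia, without overlap. The nucleolar protein NPM1 (0.04 in L3.6pl and 0.01 in FG) and the mitochondrial chaperone HSPD1 (-0.23 and -0.14) were not called. Without those 3 arrays the count was 12 lower and 3 higher in L3.6pl, where 21.1% of all genes were called, against 6.86% with them, and 7 lower and 2 higher in FG, where it was 19.6%, against 10.7%. The proliferation genes moved with that change of arrays, with 10 of 14 called lower in L3.6pl and 7 in FG without those arrays, against 1 and 0 with them by limma (4 and 1 at an unadjusted p under 0.05), and their part in the result was not tested.

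Of 9 measured textbook genes repressed by MYC, 4 rose in L3.6pl, and 3 rose and 1 fell in FG. NDRG1, also a hypoxia target, rose by 3.77 ± 0.386 in L3.6pl (adjusted p = 0.000574) and by 2.96 ± 0.386 in FG (adjusted p = 0.00116). The stress gene GADD45A rose by 1.43 ± 0.362 in L3.6pl (adjusted p = 0.0411) and by 2.98 ± 0.362 in FG (adjusted p = 0.000781). CDKN1B, the cell cycle inhibitor p27, rose in L3.6pl (0.86 ± 0.142, adjusted p = 0.00581) and was at 0.07 ± 0.142 in FG. KLF6, a zinc finger factor, rose in L3.6pl (1.69 ± 0.327, adjusted p = 0.0122) and was at 0.98 ± 0.327 in FG (adjusted p = 0.0862). The remaining FG calls, named after their values were seen, were the cell cycle inhibitor CDKN1A, higher by 1.55 ± 0.399, and CEBPA, lower by 0.44 (-0.44 ± 0.113). DDIT3 and NDRG2 were not called in either line. Without the 3 arrays that stand apart, 5 rose and 1 fell in L3.6pl, and 5 rose in FG. The list median was 0.95 in L3.6pl and 0.62 in FG with all arrays.

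Among 17 measured clock genes and BHLHE40 or BHLHE41 targets, 5 rose and 2 fell in L3.6pl, and 3 rose and 2 fell in FG. NFIL3, a clock repressor of the bZIP family, had 10.44, 10.80 and 9.93 in hypoxic L3.6pl cells, against 8.90, 8.26 and 8.37 in normoxic L3.6pl cells. It rose by 1.88 ± 0.303 in L3.6pl (adjusted p = 0.00511) and by 2.58 ± 0.303 in FG (adjusted p = 0.000644). RORA, a nuclear receptor that activates BMAL1, rose by 2.91 ± 0.463 in L3.6pl (adjusted p = 0.00471) and by 1.91 ± 0.463 in FG (adjusted p = 0.0246), with all 8 probe sets positive in both lines. CLOCK, the activator that BHLHE40 opposes, fell by 0.67 in L3.6pl (-0.67 ± 0.163, adjusted p = 0.0339) and by 0.93 in FG (-0.93 ± 0.163, adjusted p = 0.00514). Of its 4 probe sets, 4 were negative in L3.6pl and 3 in FG. PPARG, a nuclear receptor that drives fat cell formation, rose in L3.6pl (1.42 ± 0.225, adjusted p = 0.00455) and was at 0.23 ± 0.225 in FG. PER2, a core clock repressor, was at 0.03 in L3.6pl and -0.50 in FG and was not called, nor was RXRA. With the 3 arrays that stand apart left out, 7 rose and 2 fell in L3.6pl, and 4 rose and 2 fell in FG, beside 21.1% of all genes called in L3.6pl and 19.6% in FG.

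Among the 10 CITED2 partners and relatives, 0 were called in L3.6pl and 1 in FG (limma, with 2 and 3 at an unadjusted p under 0.05). TFAP2C, a factor that CITED2 coactivates, fell in FG (-0.80 ± 0.209, adjusted p = 0.0344) and was at 0.32 ± 0.209 in L3.6pl. HIF1A, the competitor of CITED2, was at -0.47 ± 0.142 in L3.6pl and at -0.11 ± 0.142 in FG, and TFAP2A was at -0.38 ± 0.236 and at -0.65 ± 0.236, none of them called. Without the 3 arrays that stand apart, 4 rose in L3.6pl, and 2 rose and 1 fell in FG.

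**Figure D5:**
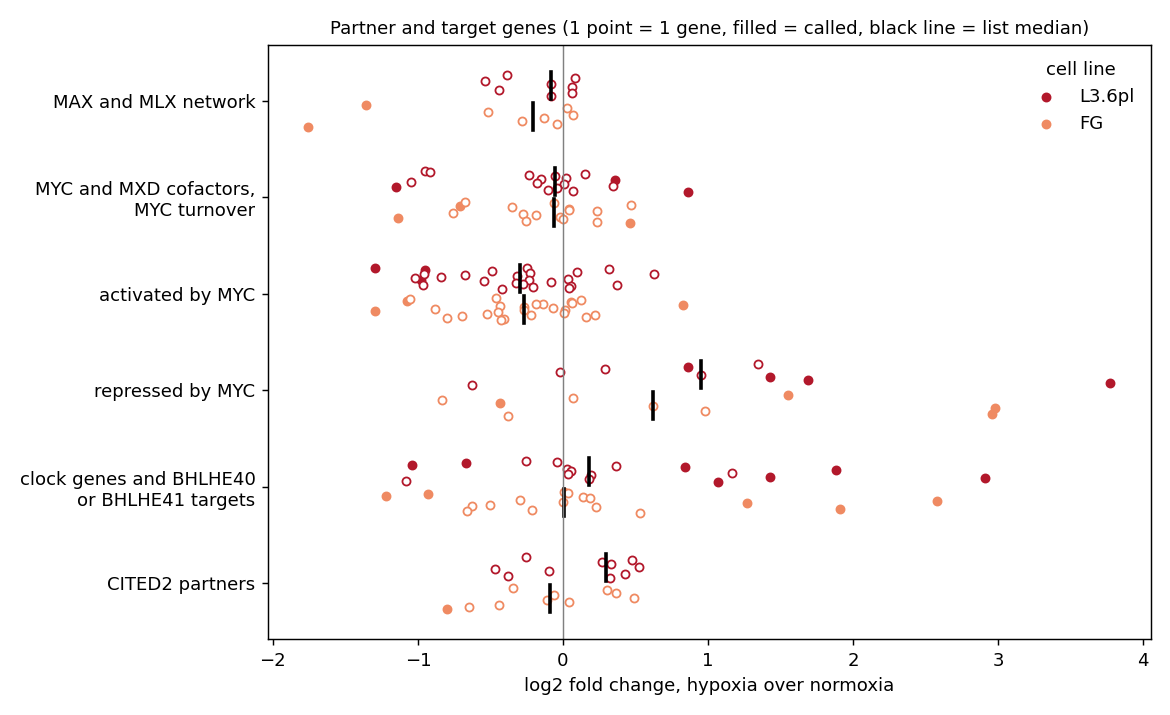
Log2 fold change of hypoxia over normoxia (x axis) of each measured gene in 6 lists (y axis), L3.6pl in dark red and FG in orange, filled where called, with the list median as a black line. Genes repressed by MYC have medians of 0.95 in L3.6pl and 0.62 in FG, genes activated by MYC have -0.30 and -0.27, and the cofactors lie around 0.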

How the data were processed

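Each deposited value is an intensity on a linear scale that the authors obtained with RMA, per the submitters' processing notes, with no version given in the sources used here. Array medians ran from 39.1 to 41.4, so no further scaling was applied, and log2 was taken of each deposited intensity. The number of arrays limits the precision. Probe sets took their gene from the array's annotation, with symbols updated by gene number to those of GRCh38.p14, and the brightest of a gene's probe sets over 12 arrays stood for it. Of 54675 probe sets, 62 were controls, 1801 had several genes and 11721 had none.

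All 12 arrays entered 1 limma 3.58.1 fit in R 4.3.3 with 4 group means and eBayes (8 residual and 2.72 prior degrees of freedom), with Benjamini-Hochberg adjustment over 19775 genes. An exact test of 3 arrays against 3 cannot go below a two-sided p of 0.1. Single probe sets were tested in a fit over all 41091. Same-numbered arrays of the lines at 1 oxygen level deviated together from their group means (correlation 0.358 to 0.735, all 6 pairs). This pairing between lines comes from the data and not the labels. The main fit did not use it, so its between-line values are unpaired, and a replicate block was run as an alternative. That block gave each number a single effect over both oxygen levels. The members, lists and alternatives were chosen with earlier results of these data known, and the fits of single probe sets with fewer arrays were added after the data were seen.

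Named list genes are the 4 at most with the lowest adjusted p among those called in either hypoxia comparison, and the 2 brightest at most among the others. The genes nearest to a member were sought for members whose SD over the arrays was at least 0.5. Alternatives were 2 normalizations, leaving out dim genes, averaging a gene's probe sets, testing each probe set singly, only the groups compared, an intensity trend, array weights, a replicate block, a stricter threshold, and arrays left out singly or 3 together.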

Additional observations from a re-analysis of the deposited data

How the results depend on the processing

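Of 763 values of the 7 members under the alternatives, 706 kept their direction and side of the threshold, 37 became called, 4 lost their call and 16 changed sign. With array quality weights the members called numbered 5 in hypoxic L3.6pl, 5 in hypoxic FG, 4 between lines in normoxia, 3 between lines in hypoxia and 1 for the difference of effects (CITED2), beside 26.3%, 29%, 33.5%, 23.3% and 2.13% of all genes called, in the same order. Without the 3 arrays that stand apart they numbered 5, 5, 2 and 4 in the first 4 of these, and the cause was not tested. Of all genes, 21.1%, 19.6%, 13.1% and 22.3% were called there. With the mean of all probe sets 2 were called between lines in normoxia (MXD1 and BHLHE41). In hypoxia 3 were called (MXD1 and BHLHE41 higher in L3.6pl, and BHLHE40 lower). The shares of all genes called there were 11.6% in normoxia and 18% in hypoxia. With 1 array left out in turn the count was 3 to 5 in L3.6pl, 2 to 4 in FG, 1 to 2 between lines in normoxia, 1 to 2 in hypoxia and 0 throughout for the difference.

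Values that changed sign were never called. MYC in FG was at 0.00695 with array weights, and the BHLHE40 difference of effects was at -0.51 with the mean of its probe sets. With 1 array left out, BHLHE41 in FG ran from -0.14 to 0.020, MYC in L3.6pl from -0.060 to 0.33, MXI1 and MAX between lines in normoxia from -0.070 to 0.39 and from -0.069 to 0.25, and the difference of effects from -0.027 to 0.55 for BHLHE40, -0.13 to 0.33 for MXI1 and -0.013 to 0.39 for MXD1.

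With the replicate number as a block, BHLHE40 was called in L3.6pl (adjusted p = 0.0104) and FG (0.0197), so 4 members were called in each line, and no other member's call changed. Between lines the block changed no member's call. It gave each number a single effect over both oxygen levels. The pairing between lines within an oxygen level was therefore not fitted by itself. Between oxygen levels within a line, same-numbered arrays had deviations correlated at -0.217 to 0.413, over 0.1 in 2 of 6 pairs, and are not taken as pairs. Of the 12 arrays, 8 correlated best with their own number.

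The count over all genes moved more than 1.5 times in some settings, as follows. In L3.6pl it was 1357, against 797 with only the groups compared, 2130 with the replicate block, 5192 with array weights, 4179 without the 3 arrays and 508 to 2436 with 1 array left out. In FG it was 2117, against 5729, 3871 and 1029 to 2899 with array weights, without the 3 arrays and with 1 left out. Between lines it was 2116 in normoxia, against 6623 with array weights and 1254 to 2626 with 1 array left out, and 3310 in hypoxia, against 2142 to 3813 with 1 left out. For the difference of effects it was 5, with 2 to 23 with 1 array left out, 10 to 19 in 6 other settings and 421 with array weights. Fitting only the groups compared gives no separate value for the difference.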
